A study of Mus musculus with 32 samples.

Results

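The enzymes that take triglyceride out of the lipid droplet, and the proteins that set the pace of the first of them, were followed over the day in murine interscapular brown adipose tissue (iBAT). They were 5 of the 50686 genes in the count table, taken by symbol: Pnpla2, Lipe, Mgll, Abhd5 and G0s2. RNA was sequenced from iBAT of non-fasted male C57BL/6J mice aged 10 weeks, which had free access to chow and were housed at 22 °C, mildly cool for a mouse. Lights were on for 12 h and off for 12 h, and time is given as Zeitgeber time (ZT), with lights on at ZT0 and off at ZT12. The 8 groups were taken every 3 h from ZT0 to ZT21, with 4 mice each and 1 library a mouse, 32 in all. The mice carried no engineered allele and received no agent, so their handling differed by design in the time of sampling alone, and each mouse gives 1 time point. The libraries of the groups also differed in sequencing lane, as given below.

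Intracellular lipolysis cuts the fatty acids off a triglyceride in sequence. Adipose triglyceride lipase (encoded by Pnpla2) removes the first and leaves a diacylglycerol, hormone-sensitive lipase (Lipe) acts mainly on the diacylglycerol, and monoacylglycerol lipase (Mgll) releases the last fatty acid and glycerol. The first lipase needs its co-activator CGI-58 (Abhd5) to work at full rate and is held back by a small inhibitory protein, G0/G1 switch gene 2 (G0s2). In brown adipocytes the fatty acids are fuel for heat production and also activate uncoupling protein 1. Noradrenaline, through β-adrenergic receptors, cAMP and protein kinase A, is the classical trigger of the cascade.

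Pnpla2 (ENSMUSG00000025509) lies on the plus strand at chr7:141455198-141460743 of GRCm38, and Lipe (ENSMUSG00000003123) on the minus strand of the same chromosome at chr7:25379527-25398710. Mgll (ENSMUSG00000033174) is at chr6:88724412-88828360 on the plus strand, Abhd5 (ENSMUSG00000032540) at chr9:122351608-122381524 on the plus strand and G0s2 (ENSMUSG00000009633) at chr1:193272161-193273217 on the minus strand. All are protein-coding, with exons that together cover 3020 bases for Pnpla2, 5886 for Lipe, 5077 for Mgll, 5956 for Abhd5 and 871 for G0s2. Antisense genes share 15.6% of the exonic bases of Lipe (4732471J01Rik, 2064 counts over all libraries), 3.29% of those of Mgll (Gm26588, 2145 counts) and 16.0% of those of Abhd5 (A730085K08Rik, 53 counts). The libraries were stranded, but whether counting used the strand is not stated. How reads in the shared bases of these 3 genes were assigned is therefore not known. Lipe itself had 759279 counts, Mgll 401594 and Abhd5 53433.

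The sequences before the starts of the genes are shown because the members differed in how they were called between time points, and because letters that clock proteins and cAMP-responsive factors are known to bind can be looked up in them. They are RefSeq windows on GRCm38.p6 that reach from 250 bases before a start to 50 bases after it, 1 window each for Pnpla2, Abhd5 and G0s2 and a pair each for Lipe and Mgll. Only bases before the start are printed, 5′ to 3′ in the direction of the gene. The E-box CACGTG, which clock proteins bind, occurred in 1 window of Lipe, with its first base at position -155 from the start, and in 1 window of Mgll, at position -44. In the lines for Lipe (chr7:25396107-25396172, minus strand) and Mgll (chr6:88724338-88724403, plus strand), capitals mark the E-box with 30 bases on either side.
Lipe: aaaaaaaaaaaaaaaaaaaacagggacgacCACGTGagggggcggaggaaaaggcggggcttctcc
Mgll: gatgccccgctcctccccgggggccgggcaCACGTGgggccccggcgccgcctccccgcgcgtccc
The members that passed the tests between time points, Pnpla2 (chr7:141454938-141455187, plus strand) and G0s2 (chr1:193273189-193273438, minus strand), are printed with the whole 250 bases, and capitals in the line of G0s2 mark TGACG, the shorter core of a cAMP response element, read on the opposite strand.
Pnpla2: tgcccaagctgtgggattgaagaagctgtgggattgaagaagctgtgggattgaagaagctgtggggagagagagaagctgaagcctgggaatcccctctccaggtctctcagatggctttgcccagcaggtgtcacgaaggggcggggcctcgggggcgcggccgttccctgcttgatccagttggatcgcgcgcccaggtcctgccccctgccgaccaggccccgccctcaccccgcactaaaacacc
G0s2: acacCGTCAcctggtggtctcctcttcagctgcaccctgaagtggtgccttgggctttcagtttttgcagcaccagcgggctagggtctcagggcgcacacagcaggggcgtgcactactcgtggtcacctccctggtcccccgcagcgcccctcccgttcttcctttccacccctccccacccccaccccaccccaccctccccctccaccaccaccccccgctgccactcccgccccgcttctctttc

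No window of Pnpla2 held any of the letters searched. Beside the E-box these were the D-box TTATNTAA, the full cAMP response element TGACGTCA and its core TGACG, the nuclear receptor core site AGGTCA, and 2 copies of AGGTCA spaced by 1 base. The core TGACG also occurred in the Abhd5 window and, after the start, in 1 Mgll window, and AGGTCA in the Abhd5 window alone. Both strands were searched, and the cores are contained in the longer elements. Of all 32851 windows in the table, 7.15% held the E-box, 3.51% the D-box, 1.79% the full cAMP response element and 20.8% its core, 16.3% AGGTCA and 0.0396% the pair of them. These matches are letters in a window and were not tied to any measured binding.

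Total counts per library lay between 16300770 and 18254659, and the 5 genes together took 0.5255% of all counts. Levels are given in CPM, the count of a gene scaled by the size of its library after TMM normalization, and where genes are set side by side, in CPM per kilobase of exon (FPKM). The least counted member in a single library was G0s2 with 1066 counts. Of the markers of brown adipocytes, Ucp1, which encodes uncoupling protein 1, was at 961 to 4213 CPM and Cidea at 1592 to 2145 CPM in the 32 libraries, and Dio2, Cox7a1, Elovl3 and Ppargc1a were also detected. Of the markers of white adipocytes, Lep, which encodes leptin, was at 16.9 to 299.8 CPM. The sum of 8 skeletal muscle markers ran from 2.34 to 5954 CPM, with a median of 377 CPM. All 8 were detected in the series. The sum exceeded 10 times its median in ZT3 replicate 2, ZT12 replicate 2, ZT15 replicate 1 and ZT18 replicate 4, and the member tests over all 8 time points, ZT12 against ZT0, the steps, the ratios and the pairs were repeated without these 4 libraries, which is given where it changes a count. The tests within lanes or beside lane and the list counts were not repeated without them. Each time point was sequenced on 1 lane, with ZT0, ZT3 and ZT6 on lane 2, ZT9, ZT12 and ZT15 on lane 3, and ZT18 and ZT21 on lane 4. Lane and time of day can therefore be told apart only within a lane or by a fit that holds both. In bulk tissue, fewer cells of a type and less RNA per cell cannot be told apart.

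Per kilobase, Pnpla2 was the most abundant of the 5 genes with a mean of 909 FPKM over the 32 mice. G0s2, its inhibitor, followed with 377 FPKM, then Lipe with 232 FPKM and Mgll with 143 FPKM. Abhd5, the co-activator, had the lowest level with 16.2 FPKM. The place of G0s2 in this ranking did not hold at each time point. At ZT6 it was at 119 FPKM, below Lipe with 253 FPKM and Mgll with 135 FPKM. At ZT3 it was at 201 FPKM, below Lipe with 225 FPKM.

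The lipase that starts the cascade and its inhibitor were the members that passed the 3 tests between time points, and with lane in the fit the inhibitor G0s2 alone had a cosine. For Pnpla2 the time of day and the lane cannot be told apart. By JTK, a rank test against cosine templates, 2 of the 5 genes oscillated at P under 0.05, as did 36.4% of the 15505 genes tested (27.1% after Benjamini-Hochberg (BH) adjustment, which both members also passed). A 24 h cosine fitted by edgeR gave the same count, 2 of 5 against 36.1% of all genes, and so did the edgeR test of any difference between the 8 time points, against 39.8%. In each test the 2 genes were Pnpla2 and G0s2. The share of members called, 2 of 5, was thus close to the share of all genes. The median amplitude of the 5 fitted cosines was 0.14 on the log2 CPM scale, and that of all genes tested was 0.14 as well.

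**Figure D1:**
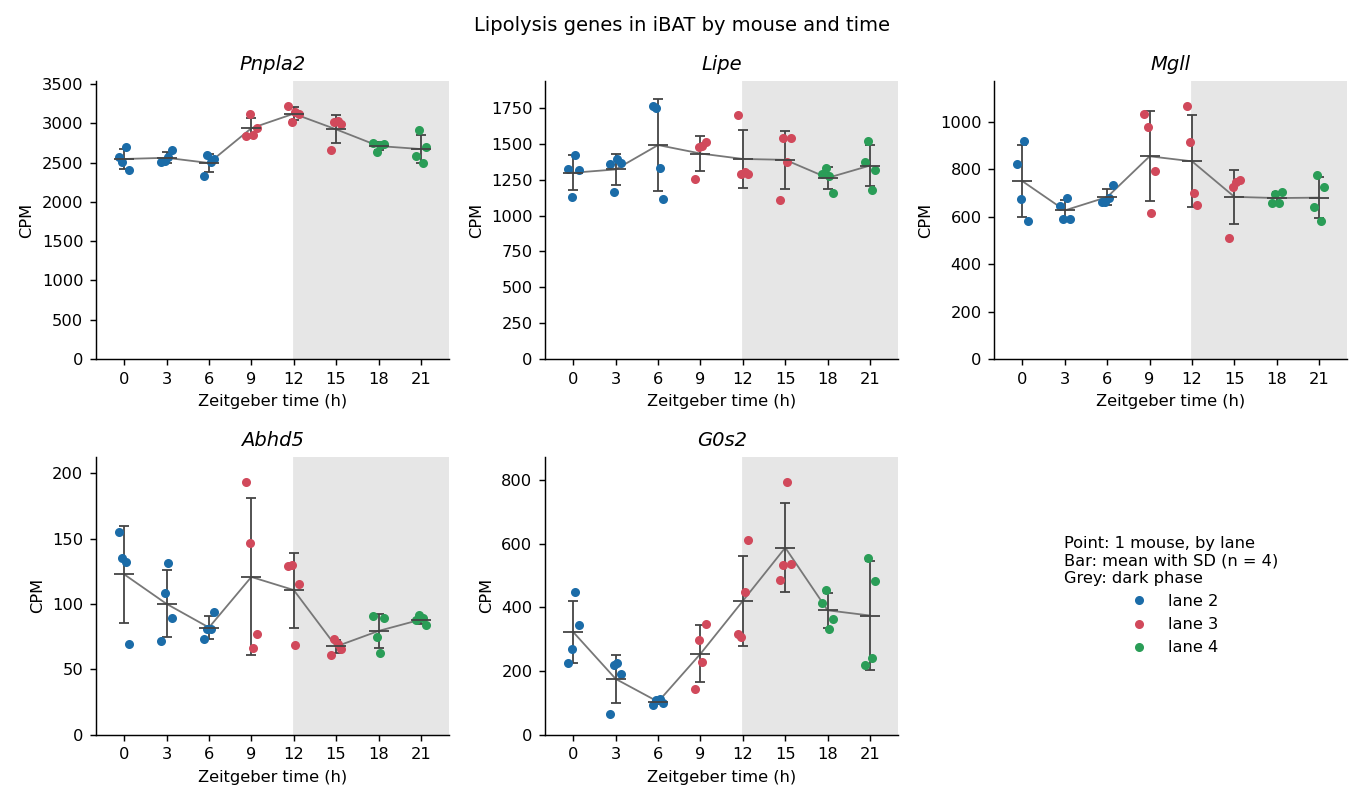
Level in CPM (vertical axes, from 0) of each of the 5 genes against Zeitgeber time in h, with 1 point a mouse coloured by sequencing lane and bars for the mean and SD of 4 mice. The means of G0s2 span from 104 CPM at ZT6 to 588 CPM at ZT15, while those of Pnpla2 stay between 2495 and 3122 CPM. Mice of the other 3 genes overlap between their highest and lowest times.

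G0s2 had the widest daily range of the 5 genes. Its mean was lowest in the middle of the light phase, at ZT6, with 104 ± 8.10 CPM (SD, n = 4), and highest early in the dark phase, at ZT15, with 588 ± 139 CPM (SD, n = 4), a ratio of 5.67. In single mice it was 225, 269, 449 and 346 CPM at ZT0, 64.0, 220.2, 227 and 190.5 CPM at ZT3, and 94.4, 109.5, 111 and 99.5 CPM at ZT6. The mice of ZT6 lay close together, and 1 mouse of ZT3 lay below all of them. At ZT9 the mice had 142, 299, 228.5 and 348 CPM, at ZT12 316, 308, 448 and 610.5 CPM, and at ZT15 487.5, 532, 794 and 537 CPM. All 4 mice of ZT9 were above all 4 of ZT6, and all mice of ZT15 were above all mice of ZT9. Later in the dark phase the values were 415, 456, 331 and 362 CPM at ZT18 and 219, 556, 240.5 and 482.5 CPM at ZT21. Mice of ZT21 thus fell into a low and a high pair, and ZT0 lay within their range.

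The cosine of G0s2 had an amplitude of 0.96 ± 0.14 (SE) in log2 CPM, which is a fitted 3.78-fold between peak and trough, and peaked at ZT16.6 ± 0.573 h (SE). The marker sums of skeletal muscle and white adipocytes had their lowest and highest medians at the same time points as G0s2. The sum of 8 muscle markers had a median of 3.74 CPM at ZT6 (2.34 to 1333 CPM) and 2250 CPM at ZT15 (542 to 5954 CPM). That of 4 white adipocyte markers was 59.95 CPM at ZT6 (44.4 to 76.6 CPM) and 235 CPM at ZT15 (208 to 453 CPM). All 4 were detected, though Wfdc21 was at 0 to 2.69 CPM. Of these 4, the study listed Lep and Nnat among the oscillating genes of iBAT. The part of either marker sum in the course of G0s2 was not tested. Without the 4 libraries over 10 times the muscle median, G0s2 was at 621 ± 149.6 CPM at ZT15 (SD, n = 3) and its cosine had an adjusted p of 0.000126 (edgeR), with ZT15 replicate 3 (3501 CPM of muscle markers) and ZT0 replicate 3 (3747 CPM) still among the libraries. The cosine took 60.5% of the variance over the 32 mice (edgeR, BH-adjusted p = 4.68e-05). The test of the 8 time points gave an adjusted p of 7.12e-05 by edgeR, and JTK a P of 6.45e-07. With lane in the same fit as the cosine the adjusted p was 0.000246, the amplitude 1.08 ± 0.19 (SE) in log2 CPM and the peak ZT19.3 ± 1.06 h. In that fit 17.2% of all genes had a cosine, and G0s2 was the only 1 of the 5 members among them.

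Within lane 2, G0s2 differed between ZT0, ZT3 and ZT6 (edgeR, adjusted p = 0.017), where 13.3% of all genes tested on that lane did. Without ZT0 replicate 3, its highest value on that lane, the adjusted p was 0.0544. Between the 3 time points of lane 3, where 1.93% of all genes differed, G0s2 had an adjusted p of 0.102, and between the 2 of lane 4, where 4.48% did, 0.938. No other member differed within a lane, so that 1 of 15 such tests passed. Without ZT0 replicate 4, Abhd5 passed on lane 2 as well (adjusted p = 0.0194).

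Pnpla2 differed little in size between time points, with little spread between mice. Its mean was 2495 ± 117 CPM (SD, n = 4) at ZT6 and 3122 ± 82.2 CPM (SD, n = 4) at ZT12, a ratio of 1.25. At ZT0 the mice had 2567, 2506, 2701 and 2411 CPM, at ZT3 2503, 2518, 2567 and 2657 CPM, and at ZT6 2327, 2593, 2511 and 2549 CPM. These 3 time points of the early light phase overlapped throughout. From ZT9 on the values were 2838, 3120.0, 2852 and 2938 CPM, at ZT12 3216, 3017, 3141 and 3112 CPM, and at ZT15 2654, 3018, 3029 and 2991 CPM. With the exception of 1 mouse at ZT15, every mouse of these 3 time points was above every mouse of ZT0, ZT3 and ZT6. In the second part of the dark phase, Pnpla2 was at 2752, 2629, 2729 and 2732 CPM at ZT18 and at 2583, 2911, 2489 and 2704 CPM at ZT21, between the 2 other sets of time points and overlapping both.

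The cosine of Pnpla2 had an amplitude of 0.14 ± 0.02 (SE) in log2 CPM with a peak at ZT13.1 ± 0.553 h (SE) and took 62.2% of the variance (edgeR, adjusted p = 0.000102). The 8 time points differed with an adjusted p of 0.000316 by edgeR, and JTK gave a P of 1.08e-05. The groups of time points that separate Pnpla2 are at the same time the 3 lanes. With lane in the fit the amplitude was 0.02 ± 0.04 (SE) and the adjusted p 0.967, and within the lanes the adjusted p was 0.909 on lane 2, 0.735 on lane 3 and 0.919 on lane 4.

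**Figure D2:**
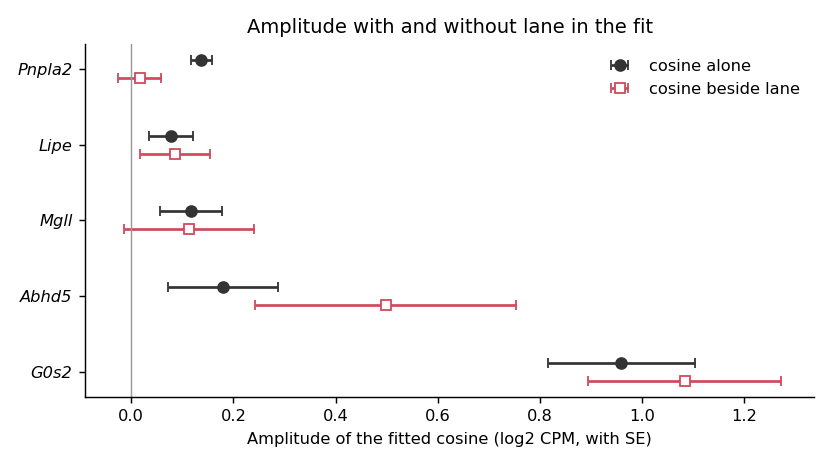
Amplitude of the fitted 24 h cosine (horizontal axis, log2 CPM, with SE over 32 libraries) of each gene, fitted alone (filled circles) or beside sequencing lane (open squares). G0s2 keeps an amplitude near 1 in both fits, with 0.96 alone and 1.08 beside lane, while that of Pnpla2 is 0.14 alone and 0.02 beside lane.

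At the onset of the dark phase against the onset of the light phase (ZT12 against ZT0), 1 of the 5 genes differed, where 15.9% of all genes did and 7.71% were higher at ZT12. Pnpla2 was higher at ZT12 by 0.29 ± 0.06 (SE) in log2 (edgeR, adjusted p = 0.00084), 3122 against 2546 CPM, and all 4 mice of ZT12 were above all 4 of ZT0. These 2 time points are on different lanes. G0s2 had 421 ± 142 CPM at ZT12 and 322 ± 98.0 CPM at ZT0 (SD, n = 4 each), a difference of 0.38 ± 0.33 (SE) in log2 with an adjusted p of 0.459, and the mice of the 2 time points overlapped. The differences were 0.10 ± 0.13 for Lipe (adjusted p = 0.63), 0.15 ± 0.16 for Mgll (0.549) and -0.15 ± 0.26 for Abhd5 (0.744), all in log2 with SE. Tested against a change of 1.5-fold, none of the 5 passed, and none had an unadjusted p under 0.05. No share of all genes is set beside this count, so it is not read as particular to the members.

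Over the 8 steps of 3 h, 2 of 40 member tests passed, both from ZT6 to ZT9. G0s2 was 2.45-fold higher at ZT9 than at ZT6 (log2 difference 1.30 ± 0.33, SE, edgeR adjusted p = 0.0357), and Pnpla2 1.18-fold higher (0.24 ± 0.06, adjusted p = 0.0272), in a step at which 1.95% of all genes passed and which crosses from lane 2 to lane 3. The call of G0s2 was lost without any single library of ZT6, without ZT9 replicate 2 or without ZT9 replicate 4 (adjusted p up to 0.135), and without the 4 libraries rich in muscle transcripts (0.0501). That of Pnpla2 was lost without ZT6 replicate 1 or 3 or ZT9 replicate 2 or 4 (adjusted p up to 0.109). No member passed at the other steps, where the share of all genes was 13.8% from ZT0 to ZT3, 2.08% from ZT3 to ZT6, 0% from ZT9 to ZT12 (1047 genes at an unadjusted p under 0.05), 3.04% from ZT12 to ZT15, 1.17% from ZT15 to ZT18, 2.06% from ZT18 to ZT21 and 7.72% from ZT21 to ZT0. The lowest unadjusted p among the members at those steps was 0.00999, for Abhd5 from ZT12 to ZT15.

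Lipe passed none of the tests over the day (cosine adjusted p = 0.264, 8 time points 0.67, both by edgeR, and JTK P of 1). Its time point means ran from 1263 ± 75.0 CPM at ZT18 to 1492 ± 319 CPM at ZT6 (SD, n = 4 each). At ZT6 the 4 mice had 1762, 1752, 1333 and 1119 CPM, at ZT18 1288, 1330.0, 1278 and 1156 CPM. The mice of ZT6 included the 2 highest values of Lipe in the series and, in replicate 4, a value lower than any at ZT18, and the groups overlapped. The spread within time points, 0.18 in log2 CPM, exceeded the SD of the 8 means, 0.07.

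Mgll did not pass either (cosine adjusted p = 0.194, 8 time points 0.14, edgeR, JTK P of 0.63). Its mean was lowest at ZT3 with 627 ± 43.7 CPM and highest at ZT9 with 855 ± 189 CPM (SD, n = 4 in either group), a ratio of 1.36. The mice had 646, 590.1, 680.0 and 592 CPM at ZT3 and 1033, 979, 618 and 791.5 CPM at ZT9, so that 1 mouse of ZT9 was within the range of ZT3. Without that mouse, ZT9 replicate 3, the test of the 8 time points gave an adjusted p of 0.0384. At ZT12 the values were 1066, 918, 702 and 649.7 CPM, again with a pair of high and a pair of lower mice.

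Abhd5 came closest to the threshold without passing it (8 time points adjusted p = 0.0523, cosine 0.274, edgeR, JTK P of 0.815). Its means ran from 67.5 ± 5.17 CPM at ZT15 to 123 ± 37.0 CPM at ZT0 (SD, n = 4 each), a ratio of 1.82. At ZT0 the mice had 155, 135, 132 and 69.2 CPM, at ZT9 193, 146, 66.1 and 77.1 CPM, and at ZT15 61.3, 73.4, 69.6 and 65.8 CPM. The 4 mice of ZT15 were all low and close together, and 1 mouse of ZT0 was among them. DESeq2 gave an adjusted p of 0.0102 for the 8 time points, edgeR gave 0.0472 with no filter on low counts and 0.0443 with a filter that ignores the groups, and leaving out any 1 of 5 libraries (ZT0 replicate 4, ZT3 replicate 1, ZT9 replicate 3, ZT9 replicate 4 or ZT12 replicate 3) brought the edgeR value under the threshold, to 0.0132 at the lowest.

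**Figure D3:**
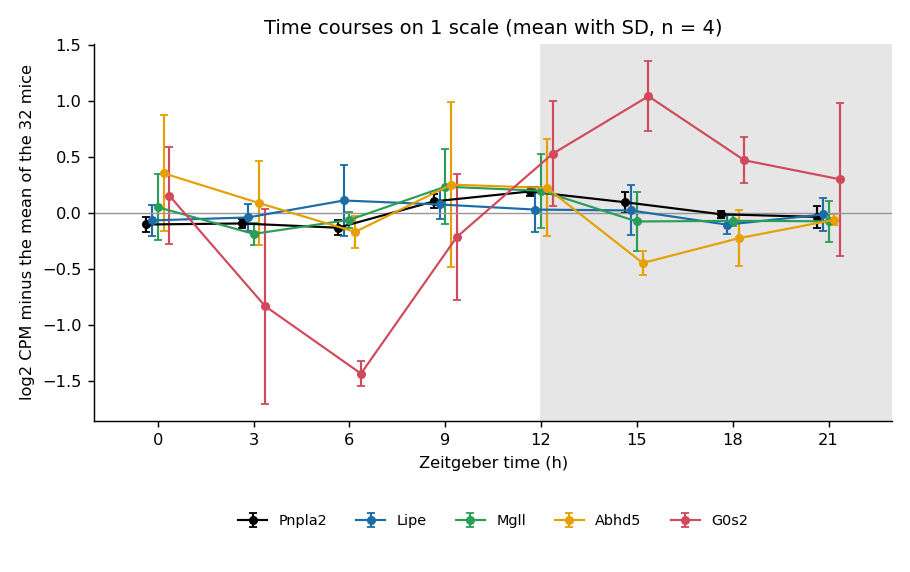
Mean and SD (n = 4 mice) of log2 CPM at each Zeitgeber time, after subtraction of the mean of the 32 mice for each gene. G0s2, fitted with an amplitude of 0.96, lies furthest from 0 at ZT3, ZT6 and ZT15, with means outside the range of the other 4 genes, and Abhd5 has its lowest mean at ZT15, where that of G0s2 is highest.

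When the 8 means of a gene were put in order, no neighbours in the order were separated beyond their spread. Such neighbours are the closest means by construction, so this says nothing about time points further apart in the order. Of 35 neighbouring pairs over the 5 genes, 0 had non-overlapping mice and 0 had an unadjusted p under 0.05 (exact permutation test of 4 against 4 mice on log2 CPM, two-sided, smallest possible p 0.0286). For G0s2 the order from the top was ZT15, ZT12, ZT18, ZT21, ZT0, ZT9, ZT3 and ZT6. For Pnpla2 it was ZT12, ZT9, ZT15, ZT18, ZT21, ZT3, ZT0 and ZT6. The orders shared ZT6 as the lowest time, while the order of Abhd5 began with ZT0 and ended with ZT15.

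The ratio of 2 genes within a library does not depend on the scaling between libraries. Of 4 ratios compared over the 8 time points, 1 differed after BH adjustment over the 4, that of Pnpla2 to G0s2, the lipase over its inhibitor. Its geometric mean was 24.1 at ZT6 and 5.06 at ZT15, 4.76-fold apart (F = 9.13, permutation test over 32 mice with 100000 resamples, p = 5e-05, adjusted 0.0002). These are ratios of CPM, whose height depends on gene length, so only their change is read. G0s2 changed 5.67-fold between its highest and lowest means and Pnpla2 1.25-fold, so this ratio mostly follows G0s2. It is not a separate result beside the course of G0s2. The ratio lay between 22.5 and 25.6 in the mice of ZT6 and between 3.81 and 5.67 in those of ZT15, with no overlap. The highest ratio of a single mouse, 39.1, was at ZT3. At ZT0 it was 8.16, at ZT3 16.3, at ZT9 12.2, at ZT12 7.73, at ZT18 6.98 and at ZT21 7.73 (geometric means of 4 mice). The difference was also present when time points were permuted within lanes only (permutation p = 0.00065, adjusted 0.0026), and without the 4 libraries rich in muscle transcripts (permutation p = 0.00026, adjusted 0.00104).

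**Figure D4:**
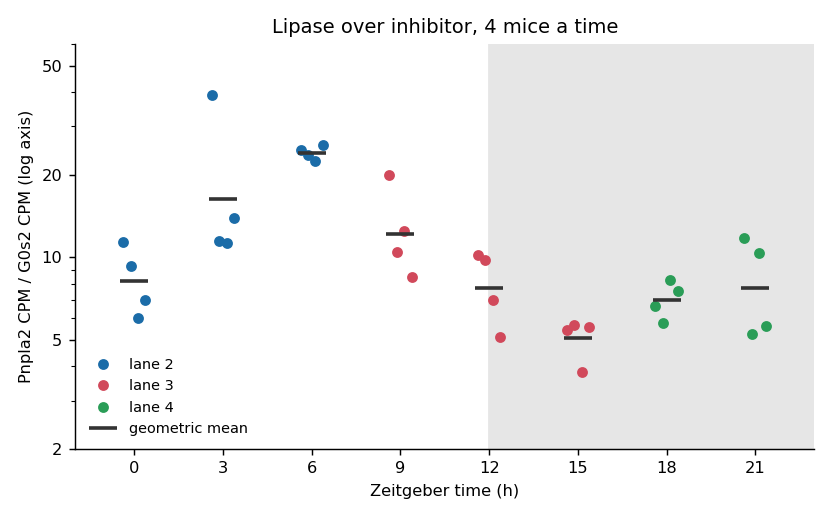
Ratio of Pnpla2 CPM to G0s2 CPM in each mouse (log axis, no unit) against Zeitgeber time in h, coloured by lane, with the geometric mean of 4 mice as a dash. The geometric mean is highest at ZT6, with 24.1, and lowest at ZT15, with 5.06, and the mice of these 2 time points do not overlap.

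The ratio of Pnpla2 to its co-activator Abhd5 had its lowest geometric mean at ZT0, with 21.6, and its highest at ZT15, with 43.3. The mice of ZT15 lay between 41.1 and 45.4 and those of ZT0 between 16.6 and 34.8, without overlap, but over all 8 time points the permutation p was 0.0553 (adjusted 0.103). It passed without ZT0 replicate 4, without ZT9 replicate 1 or without ZT9 replicate 3 (adjusted p down to 0.0258). Lipe to Pnpla2, second over first lipase, ran from 0.444 at ZT12 to 0.588 at ZT6 (permutation p = 0.0775, adjusted 0.103), and passed without ZT6 replicate 4 (adjusted permutation p = 0.0033). Mgll to Lipe, the last lipase over the one before it, ran from 0.466 at ZT6 to 0.59 at ZT12 (permutation p = 0.318).

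Mice of the same time point also differed from one another, and the 10 pairs of members were compared on deviations from the time point means over 32 mice. The share of all gene pairs that would pass in this way was not computed, so these r are not read as particular to the members. After BH adjustment over the 10, Mgll with Abhd5 passed at Pearson r = 0.66 (permutation p = 0.00277, adjusted 0.0151) and Spearman rho = 0.64 (permutation p = 0.00185). Within lanes r was 0.65 on lane 2 (exact permutation p = 0.102), 0.73 on lane 3 (0.0199) and 0.09 on lane 4 (0.632). At ZT9, replicate 1 was the highest mouse for both genes (1033 CPM of Mgll and 193 CPM of Abhd5) and replicate 3 the lowest for both (618 and 66.1 CPM). Pnpla2 with Mgll had r = 0.58 (permutation p = 0.00302, adjusted 0.0151) and rho = 0.55 (permutation p = 0.00557), but r was -0.03 when libraries were scaled by their totals alone. On lanes 2, 3 and 4 this r was 0.61, 0.54 and 0.86 (exact permutation p of 0.0689, 0.0951 and 0.0851). Pnpla2 with G0s2 had r = 0.47 (permutation p = 0.0133, adjusted 0.0443) and rho = 0.44 (permutation p = 0.0311), with 0.32, 0.43 and 0.77 on the 3 lanes (exact permutation p of 0.248, 0.154 and 0.2). The call of Pnpla2 with G0s2 was lost without any 1 of 13 of the 32 libraries (adjusted permutation p up to 0.1097), and also with DESeq2 size factors (0.0724). After the 2 libraries farthest from the median of the first gene were left out, r was 0.61 for Mgll with Abhd5, 0.48 for Pnpla2 with Mgll and 0.41 for Pnpla2 with G0s2, and 0 of the 10 pairs passed, with 3 at an unadjusted permutation p under 0.05. The same counts, 0 and 3, were found without ZT15 replicate 1 alone and without the 4 libraries rich in muscle transcripts, among them ZT15 replicate 1 with the highest sum of muscle markers (5954 CPM). Without ZT15 replicate 1, r was 0.68 for Mgll with Abhd5, 0.48 for Pnpla2 with Mgll and 0.48 for Pnpla2 with G0s2, and without the 4 libraries it was 0.69, 0.53 and 0.50.

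For each member the genes with the most similar course were sought among 8522 others with a mean of at least 10 CPM, by Pearson r of log2 CPM over the 32 libraries, given as a description since all genes of a library share its scaling and lane. G0s2 was most like Xdh, which encodes xanthine dehydrogenase (r = 0.80), Tsc22d3, a glucocorticoid-induced gene (r = 0.79), and Tmem109 (r = 0.78). Among mice of the same time point the r of these genes with G0s2 was 0.22, 0.37 and 0.16. For Pnpla2 they were Ube3b, a ubiquitin ligase (r = 0.92), Agpat1, an acyltransferase of phosphatidic acid synthesis (r = 0.88), and Mpdu1 (r = 0.86), with 0.75, 0.59 and 0.66 within time points. For Mgll they were March5, a ubiquitin ligase of mitochondria (r = 0.91), Lman2 (r = 0.90) and Dhrs4 (r = 0.89), with 0.88, 0.94 and 0.92 within time points. Abhd5 was most like Clptm1l (r = 0.86), Acp5 (r = 0.85) and Stt3b, a subunit of oligosaccharyltransferase (r = 0.80), and Lipe like Cspg4 (r = 0.75), Sec16a (r = 0.74) and 2410131K14Rik (r = 0.72). Within time points r was 0.84, 0.83 and 0.81 for the genes of Abhd5 and 0.77, 0.85 and 0.76 for those of Lipe. The genes were chosen for their r over all libraries.

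Upstream of the lipases, the transcripts of 23 receptors and components of cAMP signalling were examined, among them receptors that lower cAMP. All were tested, 17 had a 24 h cosine (36.1% of all genes did), and 7 had a cosine beside lane (17.2%). A fitted peak in the light phase was found for 14 of the 17, against 18.4% of all genes, which is 50.95% of those with a cosine. The median amplitude of the list was 0.22 in log2 CPM, against 0.14 for all genes. The lowest adjusted p belonged to Prkaca, the catalytic subunit of protein kinase A, with 264 ± 15.3 CPM at ZT18 and 360.0 ± 34.3 CPM at ZT9 (SD, n = 4 each, edgeR adjusted p = 4.43e-06, 0.000424 beside lane). Adora1, an adenosine receptor that lowers cAMP, ran from 131 ± 11.7 CPM at ZT21 to 211 ± 35.4 CPM at ZT9 (edgeR adjusted p = 4.77e-06, 0.00844 beside lane). Adrb3, the adipocyte β-adrenergic receptor, was highest at ZT0 with 409.9 ± 97.1 CPM and lowest at ZT15 with 112 ± 33.7 CPM (edgeR adjusted p = 2.75e-05, 0.124 beside lane). At ZT12 the receptor Adrb3 was lower than at ZT0 by a log2 difference of -1.82 (edgeR adjusted p = 8.31e-05). The time of the lowest Adrb3 mean, ZT15, was that of the highest G0s2 mean. Other genes of this list were also lowest at ZT15, and no link was tested.

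Of 14 genes of the droplet coat and its partners, 5 had a cosine (35.7% against 36.1% of all genes) and 3 had one beside lane (21.4% against 17.2%), with 3 of the 5 peaks in the light phase. Those beside lane were Plin1, Hsd17b11 and Plin3, the last without a cosine otherwise, and the median amplitude of the list was 0.14 in log2 CPM. Cidec, which drives fusion of droplets, peaked at ZT12.6 with 1029 ± 114 CPM at ZT12 and 518 ± 57.7 CPM at ZT21 (edgeR adjusted p = 5.17e-07, 0.097 beside lane). Plin4 peaked at ZT13.0 (amplitude 0.26) and Plin5, the coat protein that ties droplets to mitochondria, at ZT10.3 (0.17). Plin1, which holds CGI-58 at the droplet until it is phosphorylated, had a small amplitude of 0.11 with a peak at ZT5.59 (edgeR adjusted p = 0.0222, 0.0466 beside lane). Hsd17b11 peaked at ZT7.58 (amplitude 0.16).

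Of 9 other hydrolases of glycerides and esters, 6 had a cosine (36.1% of all genes), 2 of these with a peak in the light phase, and 3 also beside lane (17.2%), with a median amplitude of 0.18 over the list. Those that passed beside lane were Ces1d, a carboxylesterase of lipid droplets, with a peak at ZT16.8 (958 ± 87.8 CPM at ZT6 and 1417 ± 33.5 CPM at ZT18, edgeR adjusted p = 6.81e-08, 0.000958 beside lane), Pnpla3, a relative of Pnpla2, with a peak at ZT19.5 (amplitude 0.62), and Lipa, the lysosomal acid lipase, with a peak at ZT7.41 (0.18). Pnpla3 and Ces1d shared with G0s2 a trough at ZT6 and a fitted peak in the dark phase. Other listed genes, without a cosine, also had their lowest mean at ZT6, and no link was tested. Lpl, which acts outside the cell (peak ZT12.0, amplitude 0.38), Ces1f (ZT13.6, 0.36) and Abhd6 (ZT14.1, 0.16) passed without lane only.

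Of 9 genes that handle the products, 6 had a cosine (36.1% of all genes), 5 of these with a peak in the light phase (50.95% of all genes with a cosine), and 4 had one beside lane (17.2%), Aqp7, Acsl1, Dgat2 and Pck1, the last without a cosine otherwise, with a median amplitude of 0.37 over the list. Aqp7, the glycerol channel, had its highest mean at ZT6 with 185 ± 19.4 CPM and its lowest at ZT18 with 91.1 ± 8.15 CPM (edgeR adjusted p = 2.19e-05, 0.00218 beside lane). It was highest at the time point where G0s2 was lowest, as were genes of the other lists, and no link was tested. Acsl1, which activates fatty acids, peaked at ZT8.56 (amplitude 0.37) and Dgat2, which re-esterifies them to triglyceride, at ZT11.6 (0.37). Gk, glycerol kinase, peaked at ZT9.27 (0.60), Dgat1 at ZT9.98 (0.18) and Acsl5 at ZT23.1 (0.59), none of which had a cosine beside lane.

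Of 9 transcription factors tied to lipase genes, 6 had a cosine (36.1% of all genes), 4 of these with a peak in the light phase, and 5 had one beside lane (17.2%), with a median amplitude of 0.52 over the list. Clock and Arntl, the partners that bind E-boxes, peaked at ZT23.6 and ZT23.2, and Arntl was at 34.4 ± 4.07 CPM at ZT0 and 1.15 ± 0.203 CPM at ZT12 (edgeR adjusted p = 3.53e-13 for the cosine, 3e-06 beside lane). Foxo1, known to raise Pnpla2 transcription, was higher at ZT12, with 99.4 ± 2.53 CPM, than at ZT0, with 45.5 ± 4.45 CPM (log2 difference 1.13, edgeR adjusted p = 1.33e-06). Cebpa peaked at ZT6.55 (amplitude 0.29), Ppara at ZT8.58 (0.60) and Irf4 at ZT4.24 (0.54), the last without a call beside lane.

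**Figure D5:**
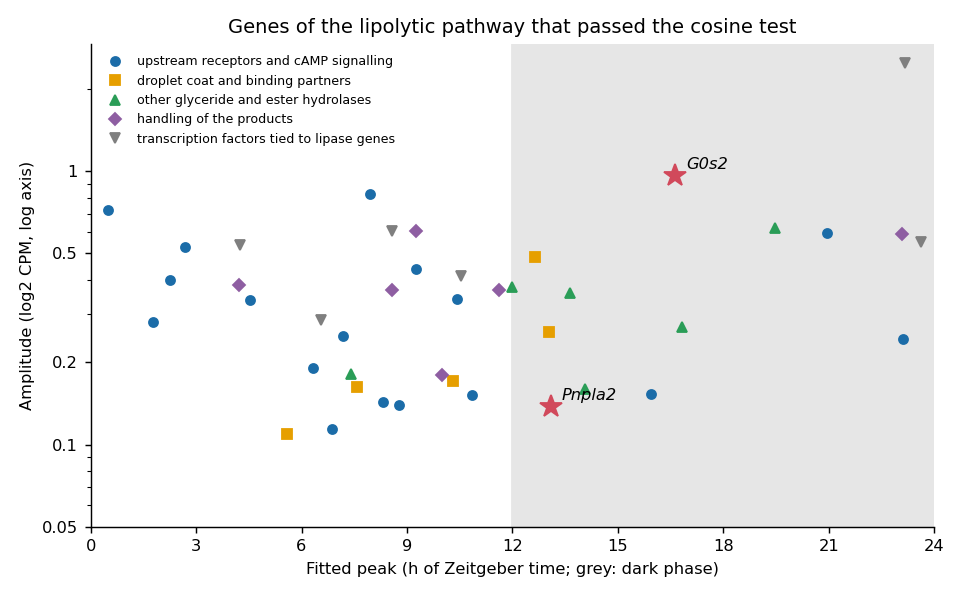
Fitted peak in h of Zeitgeber time (horizontal axis) and amplitude in log2 CPM (vertical log axis) of the listed pathway genes that passed the 24 h cosine test, with Pnpla2 and G0s2 as stars. G0s2 (amplitude 0.96) is exceeded by Arntl only, Pnpla2 (0.14) is among the lowest, and 14 of the 17 genes of receptors and cAMP signalling lie in the light phase, as do 50.95% of all genes with a cosine.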

How the data were processed

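RNA of iBAT was sequenced by the authors as stranded paired-end libraries. Per the labels and the methods of the study, reads were mapped to mm10 with GSNAP (version 2017-09-11) and counted per Ensembl gene with HTSeq (version 0.6.1). The deposited values are raw counts, with no normalization applied. Whether counting used the strand is not given in the sources used here. Groups follow the labels, and lanes the names of the sequencing runs in the labels. Depth was 16300770 to 18254659 counts a library.

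The members, lists, ratios and tests were chosen with earlier results of these data known. Genes were filtered with filterByExpr by time point and scaled by TMM in edgeR (version 4.0.16, R 4.3.3), which left 15505 genes, the 5 members included. CPM and FPKM were computed here, FPKM from the merged exons of GENCODE vM21 (GRCm38), which is not the Ensembl release counted by the authors. Tests were edgeR's quasi-likelihood F tests, and JTK_CYCLE in an own implementation with the exact null and 15 templates of 21 and 24 h. Adjusted p-values are Benjamini-Hochberg over all genes tested in a fit, with a threshold of 0.05. Amplitudes and peaks came from least squares on the log2 scale, with a prior count of 2 as edgeR adds it to the counts. Ratios and pairs were tested by permutation with 100000 resamples, two-sided, and adjusted over the 4 ratios and the 10 pairs. The edgeR tests of the cosine and of the time points, and JTK, were tried on simulated counts. List genes are named if they passed the cosine test, or, where more than 6 passed, the 3 with the lowest adjusted p. Plin3 and Pck1 fall outside this rule and were named after their values were seen. A gene symbol was found for 50376 identifiers. Alternatives were DESeq2 (version 1.42.0), other scalings and filters, the replicate number as a block, lane as a factor and each library left out. Protein sequences were not used here.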

Additional observations from a re-analysis of the deposited data

Results flagged for a closer look

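Of the 40 groups of 4 mice (5 genes at 8 time points), 6 held a mouse whose gap to the nearest of the others exceeded the critical value of Dixon's test relative to the range. By chance about 1 in 20 groups does so. In ZT15 replicate 1, Pnpla2 was low with 2654 CPM (2991 to 3029 CPM elsewhere at ZT15), and Mgll was low with 512.3 CPM, against 724.8 to 754.5 CPM. This library had the highest sum of skeletal muscle markers (5954 CPM) and of white adipocyte markers (452.7 CPM) in the series, and the part of these in the low values was not tested. Lipe was low in ZT3 replicate 2 with 1166 CPM, against 1362 to 1392 CPM, in a library with 5907 CPM of muscle markers. Lipe was also low in ZT9 replicate 1 with 1254 CPM, against 1481 to 1511 CPM (1272 CPM of muscle markers), and high in ZT12 replicate 1 with 1701 CPM, against 1287 to 1301 CPM (174.7 CPM of muscle markers). G0s2 was high in ZT15 replicate 3 with 794 CPM, against 487.5 to 537.4 CPM (3501 CPM of muscle markers).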

How the results depend on the processing

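The 2 members that oscillated by JTK remained 2 under each of the 9 other settings and with each library left out (2 to 2). The count with a cosine was 2 when each library was left out (2 to 2) and 1 with lane as a factor, and the count differing between time points ran from 2 to 4 with each library left out, 4 without ZT9 replicate 3. That count was 3, with Abhd5 added, under DESeq2, without a filter and with a filter that ignores the groups. For ZT12 against ZT0 the count was 1 without any single library (1 to 1) and 0 against a 1.5-fold change. Calls over the 3 h steps ran from 0 to 2 with each library left out (0 without ZT6 replicate 1 or 3 or ZT9 replicate 2 or 4, with 5 to 8 at an unadjusted p under 0.05 in edgeR), and were 1 without a filter and 1 without the libraries rich in muscle transcripts, an alternative chosen after seeing the data. Calls within lanes ran from 0 (without ZT0 replicate 3) to 2, ratios from 1 to 2, and pairs from 0 to 5 (0 without ZT15 replicate 1, 5 without ZT9 replicate 1). Pairs were 0 without the 2 farthest libraries and 0 without the libraries rich in muscle transcripts, and r of Pnpla2 with Mgll reversed to -0.025 under library size alone. The cause was not tested in these cases.

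Replicate numbers did not pair the mice: deviations of 112 same-numbered pairs of libraries correlated at a median of -0.12, and 8 of 32 libraries were most like one of their own number. With the replicate number as a block the counts were 2 for the cosine, 2 for the time points, 1 for ZT12 against ZT0, 3 for the steps, 1 within lanes, 1 for the ratios and 2 for the pairs, where Pnpla2 with G0s2 was lost (r of 0.35, adjusted permutation p = 0.185). Of 1025 values of single genes, ratios and pairs under other settings, 968 kept their side of the threshold or moved by less than the spread. Time of day beside lane is the limit of all comparisons across lanes, and 4 mice a time point limit the neighbouring ones.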

Other observations

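The spread between mice of 1 time point was itself uneven over the day. The coefficient of variation of Abhd5 was 49.8% at ZT9 and 30.2% at ZT0, but 7.66% at ZT15 and 3.48% at ZT21. That of G0s2 was 45.4% at ZT21 and 43.3% at ZT3, but 7.81% at ZT6, the time of its lowest mean, and that of Mgll was 23.2% at ZT12 and 3.48% at ZT18. Pnpla2 varied by 2.04% to 6.82% at every time point. These values hold counting error as well as the spread between mice. Whether the spread differs between time points was not tested.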
